A study of Mus musculus with 8 samples.

Results

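The 37 genes described here are the nuclear-encoded subunits of respiratory complex III (9 genes), complex IV (12 genes) and ATP synthase (15 genes), together with Cycs, which encodes the electron carrier cytochrome c. They were listed by gene symbol, with earlier results of these data known, and all 37 have a row among the 54532 genes of the count tables. RNA from quadriceps, a thigh muscle, was sequenced in 4 libraries from MckCre Gpcpd1 mice (knockout) and 4 from Control mice (control). The knockout mice were Gpcpd1 Flox/Flox and carried MckCre, a Cre recombinase driven by the muscle creatine kinase promoter, which is meant to delete the gene in muscle fibres and not in the other cells of the tissue. Control mice were also Gpcpd1 Flox/Flox and had no Cre, so the presence of Cre changes together with the loss of Gpcpd1. All mice were 3 months old and ate chow. The labels name no strain or sex, and do not say that every library came from a different mouse. The p-values therefore measure spread between libraries, which may be technical.

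Complex III passes electrons from ubiquinol to cytochrome c, and complex IV passes them from cytochrome c to oxygen. Both pump protons out of the mitochondrial matrix, and ATP synthase lets the protons flow back through a rotor in the membrane to make ATP. Complexes III and IV and ATP synthase combine nuclear-encoded subunits with a few encoded by mitochondrial DNA, and several nuclear subunits exist as a widely expressed form and a form found in heart and skeletal muscle. Oxidative muscle fibres hold more of these complexes than glycolytic fibres, which are the main kind in mouse quadriceps.

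Gpcpd1, a glycerophosphodiesterase gene that acts on glycerophosphocholine, had 145, 187, 193 and 181 reads in knockouts 1 to 4, against 736, 771, 688 and 711 reads in controls 1 to 4. The knockout level was 23.5% of control (log2 fold change -2.09, SE 0.10, edgeR quasi-likelihood adjusted p = 2.1e-13). An exact two-sided permutation test gave p = 0.0286, the smallest value that 4 libraries against 4 allow. Reads came from the 3′ ends of transcripts (QuantSeq), and the labels do not name the deleted exons, so these reads need not lie in the deleted part. Libraries held 4806806 to 5405999 reads in knockouts and 4404116 to 5183079 in controls. Levels are given in CPM, a gene's reads after scaling every library to 1 common total by TMM. With scaling by library totals alone, without TMM, 3 reads correspond to 0.555 to 0.681.

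Of the 37 genes, 36 had enough reads to be tested, and 10 were higher in knockout muscle at an adjusted p below 0.05 (edgeR quasi-likelihood test, Benjamini-Hochberg over 10691 genes). None was lower, and at an unadjusted p below 0.05 the test gave 16 higher, against 15.2% of all tested genes, and 0 lower, against 12.9%. DESeq2 and limma voom also called 0 members lower. Across all tested genes 15.7% passed this threshold, 8.87% higher and 6.80% lower. Among tested genes with a mean of at least 100 CPM, where most of the members lie, 13.7% were higher and 17.7% lower. The members' log2 fold changes ran from -0.12 for Cox6c to 0.77 for Atp5h, 32 of them above 0 and 4 below. Their median was 0.18, against 0.01 for all tested genes, and 0.10 without control 4. With the trend of counts with transcript length removed, 6 members were higher and 2 lower, against 8.19% higher and 7.53% lower among all tested genes. The changes were small, and that of Atp5h corresponds to a 1.70-fold difference. In 9 of the 36, each of the 4 knockout libraries lay above each of the 4 controls, an arrangement found in 10.3% of all tested genes. The reverse arrangement, with each knockout below each control, was seen in 0 members and in 8.92% of tested genes. In whole muscle, fewer cells of a type and less RNA per cell cannot be told apart.

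**Figure D1:**
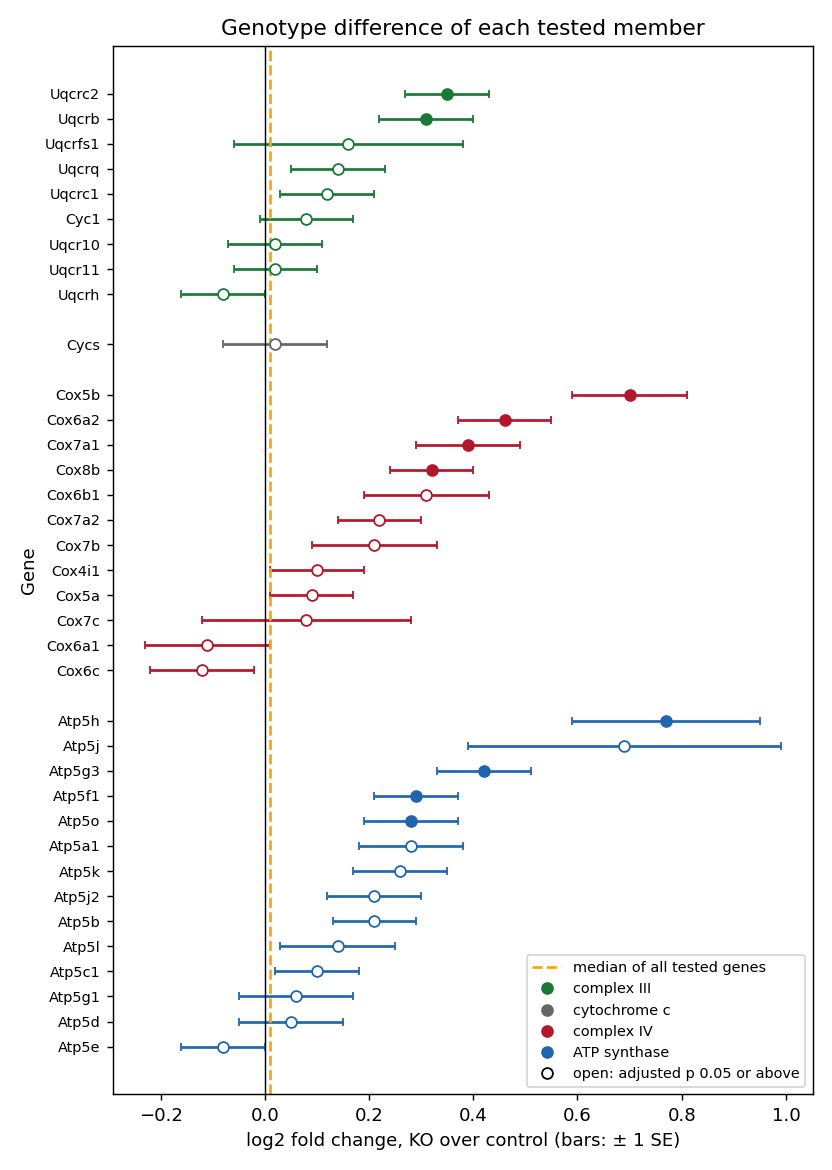
Log2 fold change of each tested member, knockout over control, with bars of 1 standard error; filled points passed an adjusted p of 0.05, open points did not, and the dashed line is the median of all tested genes (0.01). The 10 filled points lie between 0.28 (Atp5o) and 0.77 (Atp5h), and the 4 points left of 0 are open.

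The summed level of all 37 members was 21035, 22335, 20058 and 23898 CPM in knockouts 1 to 4, against 18186, 21219, 19767 and 17645 CPM in controls 1 to 4. The mean sum was 21832 ± 1664 CPM in knockouts and 19204 ± 1617 CPM in controls (SD, n = 4 each), and the groups overlapped, since control 2 stood above knockouts 1 and 3. Members took 2.01% to 2.33% of the reads in knockouts and 1.82% to 2.02% in controls. Complex III summed to 4408 ± 271 CPM in knockouts and 4195 ± 343 CPM in controls, with overlap, and complex IV to 7772 ± 734 CPM in knockouts and 6867 ± 709.6 CPM in controls, also with overlap. ATP synthase summed to 9073, 9828, 8945 and 10376 CPM in knockouts 1 to 4, against 7793, 8733, 8233 and 7435 CPM in controls 1 to 4, and there the groups did not overlap.

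Libraries of the same genotype were not alike. Among the knockouts, knockout 4 had the highest level for 27 of the 37 members and knockout 3 the lowest for 22. Among the controls, control 2 was highest for 27 and control 4 lowest for 24. As a log2 difference from the control mean, the median over tested members was 0.11, 0.25, 0.06 and 0.33 for knockouts 1 to 4, against -0.05, 0.13, 0.04 and -0.11 for controls 1 to 4. The members thus shifted together within a genotype by amounts as large as the difference between the genotypes. This was not particular to the members. For the 36 complex I subunit genes, the medians were 0.19, 0.17, 0.09 and 0.29 for knockouts 1 to 4. For controls 1 to 4 they were -0.05, 0.14, 0.01 and -0.10. The members' median coefficient of variation was 9.03% in knockouts and 9.89% in controls, against 7.23% in knockouts and 8.67% in controls for all tested genes at 100 CPM or more. Without knockout 4 the number of members called higher fell to 6.

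**Figure D2:**
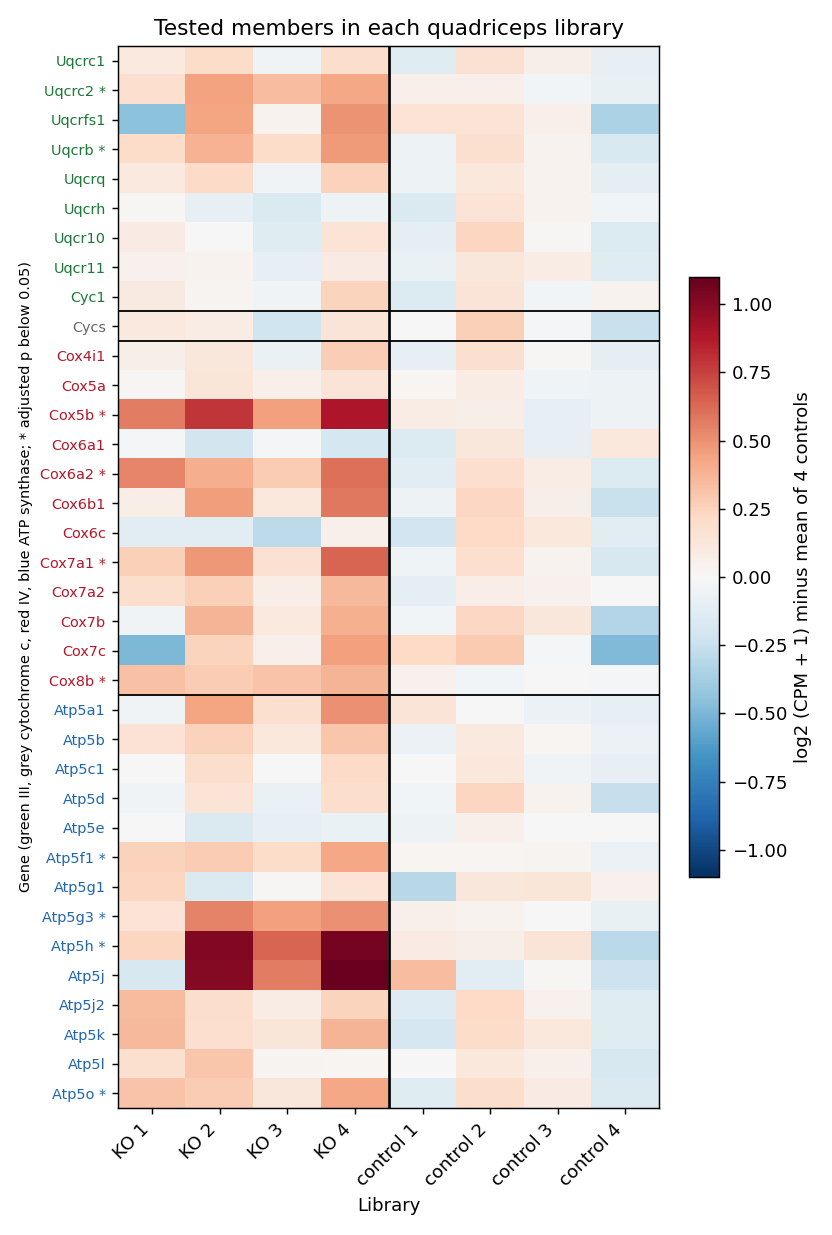
Log2(CPM + 1) of the 36 tested members in each library, minus the mean of the 4 controls, with the members ordered by complex and an asterisk at those with an adjusted p below 0.05. Knockouts 2 and 4 are the reddest columns, control 4 is blue for most members, and Atp5h, Atp5j and Cox5b show the strongest red.

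Promoters of respiratory genes often carry sites for NRF1, for ETS factors such as GABP, for the oestrogen-related receptors (ERR) or for YY1. RefSeq promoter sequences (GRCm38.p6, 250 bases before to 50 bases after the transcript start) were at hand for 29 of the 37 members. Those of complex IV and ATP synthase are shown for the 2 members of each with the largest fold changes among the called members that have a sequence and whose groups did not overlap, with matches to the motifs in capitals. The regions are chr1:36691237-36691536 on the plus strand for Cox5b, and on the minus strand chr7:140900397-140900696 for Cox8b, chr11:115419870-115420169 for Atp5h and chr2:73911277-73911576 for Atp5g3.
Cox5b: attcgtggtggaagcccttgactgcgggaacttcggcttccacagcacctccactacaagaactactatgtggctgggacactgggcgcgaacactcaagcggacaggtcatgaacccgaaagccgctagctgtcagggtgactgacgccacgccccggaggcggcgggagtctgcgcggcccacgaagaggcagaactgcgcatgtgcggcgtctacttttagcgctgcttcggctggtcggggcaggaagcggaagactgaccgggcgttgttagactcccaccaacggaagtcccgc
Cox8b: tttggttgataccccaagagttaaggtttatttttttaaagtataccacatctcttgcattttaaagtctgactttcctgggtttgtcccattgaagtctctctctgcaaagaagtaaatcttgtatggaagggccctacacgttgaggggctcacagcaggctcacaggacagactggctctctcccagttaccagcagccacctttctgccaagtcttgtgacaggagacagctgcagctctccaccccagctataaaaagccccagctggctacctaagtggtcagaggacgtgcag
Atp5h: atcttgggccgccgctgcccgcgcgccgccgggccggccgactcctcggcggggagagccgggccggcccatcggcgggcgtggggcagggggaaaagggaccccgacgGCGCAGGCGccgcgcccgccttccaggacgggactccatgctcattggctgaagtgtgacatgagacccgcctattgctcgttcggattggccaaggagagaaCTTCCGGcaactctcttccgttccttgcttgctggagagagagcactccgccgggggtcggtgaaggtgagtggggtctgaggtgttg
Atp5g3: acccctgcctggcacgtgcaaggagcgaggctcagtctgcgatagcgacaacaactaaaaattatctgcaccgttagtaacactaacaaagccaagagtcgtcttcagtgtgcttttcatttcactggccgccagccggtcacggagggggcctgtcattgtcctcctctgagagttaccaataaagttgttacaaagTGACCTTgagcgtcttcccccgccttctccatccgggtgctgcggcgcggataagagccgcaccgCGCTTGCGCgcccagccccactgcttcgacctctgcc
In Atp5h the capitals mark an NRF1 match beginning 141 bases before the start and an ETS match beginning 38 bases before it. In Atp5g3 they mark an ERR match beginning 52 bases before the start and an NRF1 match beginning at base 14 after it. The windows of Cox5b and Cox8b hold no match to these letters. The NRF1 letters GCGCANGCG stood in the promoters of 11 of the 29 members (37.9%), against 16.4% of 8188 tested genes and 6.25% of all 32851 promoters, searched on both strands. CCGGAAG (ETS) stood in 9 members (31%), against 21.3% of tested genes and 8.86% of all promoters. AAGGTCA (ERR) was found in 4 members (13.8%), against 3.86% of tested genes and 4.72% of all promoters, and AAGATGGC (YY1) in 3 members (10.3%), against 5.65% of tested genes and 2.75% of all promoters. The ETS letters end in AAG, with which the ERR and YY1 letters begin, so such matches can overlap. A motif match is a description of letters and not a measured binding site.

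In complex III, 2 of 9 members were higher and the median log2 fold change was 0.12. The median was 0.03 without knockout 4, 0.07 without control 1, 0.08 without control 4 and 0.07 with the length trend removed. Uqcrc2 (ENSMUSG00000030884, GRCm38 chromosome 7, 120635176 to 120659524, plus strand) encodes a core protein on the matrix side. Its level was 334, 399, 372 and 395 CPM in knockouts 1 to 4, against 306, 306, 288 and 278 CPM in controls 1 to 4, with no overlap. It rose by a log2 fold change of 0.35 (SE 0.08, edgeR adjusted p = 0.00441), a call that held under all 21 alternatives tried, where the log2 fold change lay between 0.31 and 0.39. Its partner core protein gene Uqcrc1 averaged 227 ± 17.2 CPM in knockouts and 209.7 ± 20.4 CPM in controls (SD, n = 4 each), with overlap and a log2 fold change of 0.12 (95% interval -0.06 to 0.29). Uqcrb, for a small subunit that lies against cytochrome b, had 374, 423, 373 and 448 CPM in knockouts 1 to 4, against 313, 367, 334 and 289 CPM in controls 1 to 4. The lowest knockout stood just above the highest control, and the log2 fold change was 0.31 (SE 0.09, edgeR adjusted p = 0.0183). That call was lost without knockout 2 (adjusted p = 0.0613), knockout 4 (0.106), control 1 (0.0515) or control 4 (0.0627), and with the length trend removed (0.186).

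The subunits of complex III that carry electrons did not pass the test. Uqcrfs1 encodes the Rieske iron-sulfur protein and had 148, 273, 208 and 285 CPM in knockouts 1 to 4, against 224, 224, 210.1 and 159 CPM in controls 1 to 4. Its spread among knockouts covered the whole control range, and the log2 fold change of 0.16 had a 95% interval of -0.26 to 0.59. Cyc1, which encodes cytochrome c1, averaged 235 ± 20.6 CPM in knockouts and 222 ± 19.2 CPM in controls, a log2 fold change of 0.08 (95% interval -0.09 to 0.26). Uqcrh, the hinge protein gene that links cytochrome c1 with cytochrome c, was the most abundant complex III transcript at 1309 ± 62.8 CPM in knockouts and 1379 ± 123 CPM in controls. Its log2 fold change was -0.08 (95% interval -0.24 to 0.09). Of the other small subunits, Uqcrq had a log2 fold change of 0.14, and Uqcr10 and Uqcr11 of 0.02 each, with overlap in all 3. Cycs itself had 102, 100.1, 80.6 and 104 CPM in knockouts 1 to 4, against 93.7, 113, 93.6 and 79.4 CPM in controls 1 to 4. The groups overlapped throughout, with a log2 fold change of 0.02 (95% interval -0.18 to 0.23).

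In complex IV, 4 of 12 members were higher and the median log2 fold change was 0.21, or 0.09 with the length trend removed. Cox5b (ENSMUSG00000061518, GRCm38 chromosome 1, 36691449 to 36693681, plus strand), which encodes a zinc-binding subunit on the matrix side, showed the largest rise of the complex IV members. It had 44.6, 52.1, 41.2 and 56.1 CPM in knockouts 1 to 4, against 31.7, 31.2, 28.0 and 28.6 CPM in controls 1 to 4. The controls lay close together and every knockout stood above them. The log2 fold change was 0.70 (SE 0.11, edgeR adjusted p = 8.8e-05), and it stayed between 0.58 and 0.77 under the 21 alternatives, called in each. Cox5b was one of the less abundant members at these 3′ ends, with 213 to 273 reads in knockouts and 136 to 154 reads in controls.

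The other called members of complex IV are the muscle forms Cox6a2, Cox7a1 and Cox8b. Cox6a2 (ENSMUSG00000030785, GRCm38 chromosome 7, 128205435 to 128206387, minus strand) had 1679.8, 1530.4, 1406 and 1766 CPM in knockouts 1 to 4, against 1067, 1314, 1225 and 1042 CPM in controls 1 to 4. The groups did not overlap, and the log2 fold change of 0.46 (SE 0.09, edgeR adjusted p = 0.00121) was called under all 21 alternatives. Cox8b had 424, 412, 423 and 439 CPM in knockouts 1 to 4, against 350.0, 333, 339.7 and 336 CPM in controls 1 to 4. This was the tightest separation in complex IV, with a log2 fold change of 0.32 (SE 0.08, edgeR adjusted p = 0.00449), and its call was lost with the length trend removed (adjusted p = 0.246). Cox7a1 had 856, 992, 803 and 1109.7 CPM in knockouts 1 to 4, against 692, 809, 732 and 631 CPM in controls 1 to 4. Control 2 stood above knockout 3, and the log2 fold change was 0.39 (SE 0.10, edgeR adjusted p = 0.00788), with an adjusted p of 0.0664 without knockout 4 and 0.0908 with the length trend removed.

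The widely expressed forms at the same positions did not pass the test. Cox6a1 averaged 23.6 ± 1.81 CPM in knockouts and 25.6 ± 2.58 CPM in controls (SD, n = 4 each), with a log2 fold change of -0.11 (95% interval -0.35 to 0.12). Cox7a2 averaged 269 ± 22.2 CPM in knockouts and 231 ± 12.6 CPM in controls, a log2 fold change of 0.22 with an edgeR adjusted p of 0.0784. Cox8a, the other form of subunit VIII and not among the 37, averaged 24.0 ± 8.41 CPM in knockouts and 25.8 ± 3.26 CPM in controls. By design a 3′ library gives reads from 1 end of a transcript whatever its length, so the forms were set side by side as shares of their summed reads, with no test. Cox6a2 made up 98.5%, 98.6%, 98.2% and 98.8% of the subunit VIa reads in knockouts 1 to 4, against 97.9%, 97.9%, 98.1% and 97.4% in controls 1 to 4. These shares did not overlap, but the step in the mean was under 1 percentage point. Cox7a1 held 77.6% ± 1.18 of the subunit VIIa reads in knockouts and 75.5% ± 1.58 in controls, and Cox8b 94.7% ± 1.73 of the subunit VIII reads in knockouts and 92.9% ± 0.781 in controls, both with overlap.

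**Figure D3:**
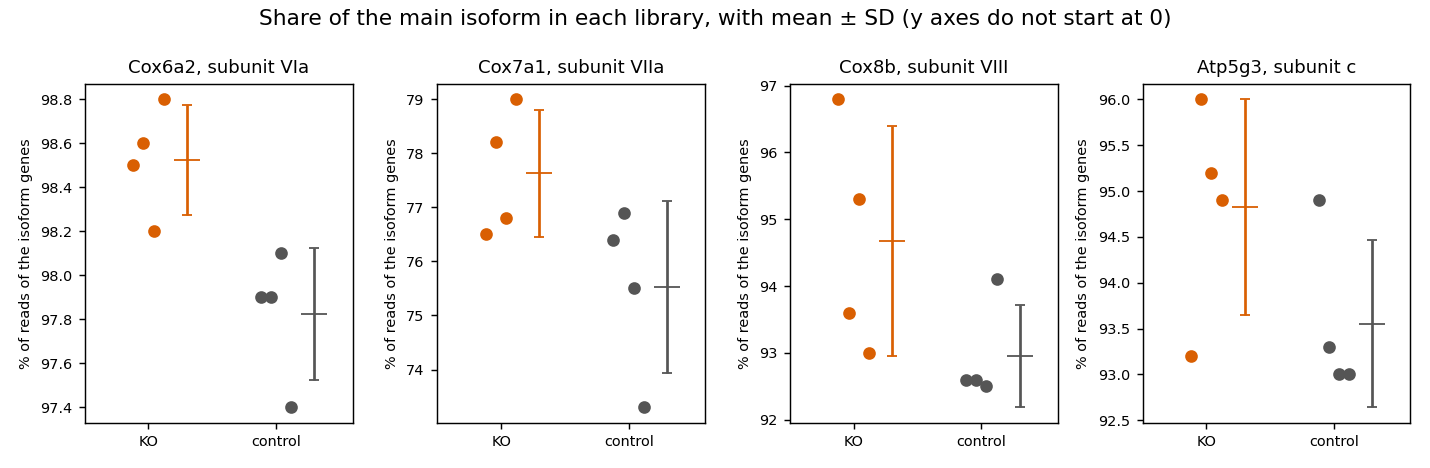
Share of the main form among the reads of the genes for 1 subunit position, in percent, for each library (points) with mean and SD, knockouts in orange and controls in grey; the y axes do not start at 0. The Cox6a2 shares of the 4 knockouts, 98.2% to 98.8%, lie above those of the 4 controls, 97.4% to 98.1%, while the other 3 panels overlap.

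Cox4i1 and Cox5a, whose products join the complex early beside the mitochondrially encoded core, had log2 fold changes of 0.10 (95% interval -0.07 to 0.28) and 0.09 (95% interval -0.07 to 0.24). Cox6b1, for a subunit on the intermembrane side, averaged 813 ± 142 CPM in knockouts and 655 ± 90.7 CPM in controls (SD, n = 4 each). Its log2 fold change of 0.31 missed the threshold (edgeR adjusted p = 0.084), and knockout 1 and knockout 3 stood below control 2. Cox7b had a log2 fold change of 0.21 (95% interval -0.02 to 0.43) and Cox7c of 0.08 (95% interval -0.31 to 0.48). Cox7c had 39 to 78 reads in knockouts and 39 to 73 in controls. It has 2 near-identical pseudogene copies, with 31 reads against 496 for the gene, so reads of Cox7c may have been assigned elsewhere. Cox6c, the most abundant of all the members, went the other way without passing the test. It had 2077, 2068, 1843 and 2333 CPM in knockouts 1 to 4, against 1939, 2611, 2434 and 2066 CPM in controls 1 to 4. Its log2 fold change was -0.12 (95% interval -0.31 to 0.07).

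In ATP synthase, 4 of 14 tested members were higher and the median log2 fold change was 0.23, or 0.14 with the length trend removed. Of these 4, Atp5h, Atp5f1 and Atp5o encode parts of the peripheral stalk, which holds the catalytic head still against the turning rotor. Atp5h (subunit d; ENSMUSG00000034566, GRCm38 chromosome 11, 115415689 to 115419962, minus strand) had 131, 225, 174 and 231 CPM in knockouts 1 to 4, against 118, 116, 123 and 90.0 CPM in controls 1 to 4. Knockout 1 stood just above the controls and the other 3 well above them. The log2 fold change was 0.77 (SE 0.18, edgeR adjusted p = 0.015), the largest among the members, and without control 2 the same value had an adjusted p of 0.0692. Near-identical pseudogene copies of Atp5h held 118 reads against 6002 for the gene itself, and adding them left the call in place. Reads that match gene and copy equally well may not have been counted, and this addition cannot recover them.

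Atp5f1 (subunit b) had 336, 343, 325 and 379.9 CPM in knockouts 1 to 4, against 286, 286, 288 and 269 CPM in controls 1 to 4. The groups did not overlap, with a log2 fold change of 0.29 (SE 0.08, edgeR adjusted p = 0.0127) that missed the threshold without knockout 4 (adjusted p = 0.0855). Atp5o encodes OSCP, the cap that joins the stalk to the head, and had 1312, 1278, 1146 and 1415 CPM in knockouts 1 to 4, against 964, 1205, 1124 and 946 CPM in controls 1 to 4. Knockout 3 stood below control 2. Its log2 fold change of 0.28 (SE 0.09, edgeR adjusted p = 0.0397) was the weakest call, lost under 9 of the 21 alternatives, where the adjusted p reached 0.194. The call was lost without knockout 1, 2 or 4 and without control 1, 3 or 4, with adjusted p-values between 0.0624 and 0.179.

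Atp5j, which encodes the remaining stalk subunit F6, had 99.3, 227, 166 and 239.6 CPM in knockouts 1 to 4, against 142, 103, 113 and 95.8 CPM in controls 1 to 4. Knockouts 2, 3 and 4 stood above every control, while knockout 1 lay at the control level. With knockout 1 the log2 fold change of 0.69 did not pass (SE 0.30, edgeR adjusted p = 0.193), and without it the value was 0.89 (adjusted p = 0.00104). As the lowest knockout for Atp5j, knockout 1 lowers the difference, so leaving it out is no test. Knockout 1 and control 4 were both the lowest of their groups for 10 of the 37 members, which were Uqcrc2, Uqcrfs1, Cox5a, Cox6b1, Cox7b, Cox7c, Atp5a1, Atp5g3, Atp5h and Atp5j. Leaving out both, an alternative added after the values were seen, gave a log2 fold change of 0.81 for Atp5j, 0.81 for Atp5h and 0.34 for Atp5a1. The 2 libraries were picked from these members' own values, so this alternative is no test of them. Under that alternative Uqcrfs1 had a log2 fold change of 0.21 and Cox7c of 0.09.

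The rotor of ATP synthase turns on a ring of subunit c, encoded by 3 genes for the same mature protein. Atp5g3, the main one here (ENSMUSG00000018770, GRCm38 chromosome 2, 73908447 to 73911326, minus strand), had 1137, 1497, 1398 and 1454 CPM in knockouts 1 to 4, against 1060.1, 1052, 1018 and 964 CPM in controls 1 to 4. Every knockout stood above the controls, knockout 1 by the least. It rose by a log2 fold change of 0.42 (SE 0.09, edgeR adjusted p = 0.00167) and was called under all 21 alternatives, with values from 0.29 to 0.50. Atp5g1 averaged 72.7 ± 8.58 CPM in knockouts and 69.8 ± 9.52 CPM in controls (SD, n = 4 each), with a log2 fold change of 0.06 (95% interval -0.15 to 0.27). Atp5g2 had 3, 2, 2 and 2 reads in knockouts 1 to 4, against 3, 1, 2 and 3 reads in controls 1 to 4, and was not tested. A pseudogene, Gm10175, shares all 296 aligned bases of the Atp5g2 transcript end, and it and a second copy held 133 reads against 18 for Atp5g2, so reads of Atp5g2 may have been assigned elsewhere. Atp5g3 gave 94.9% ± 1.16 of the subunit c reads in knockouts and 93.6% ± 0.928 in controls, with overlap.

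**Figure D4:**
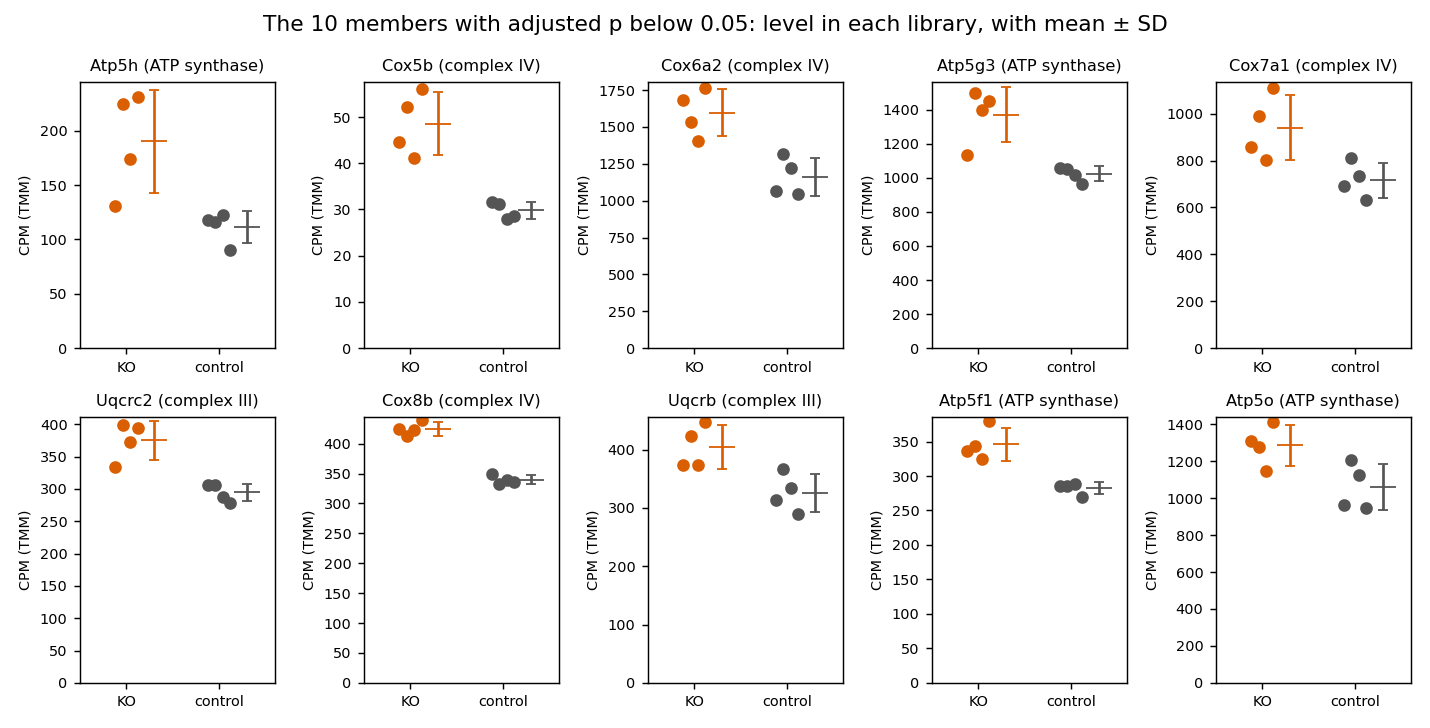
TMM-scaled level in CPM of the 10 called members in each library (points, y axes from 0), with mean and SD, knockouts in orange and controls in grey. In 8 panels the lowest knockout lies above the highest control, and in the panels of Cox7a1 and Atp5o the groups overlap.

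The catalytic head and the central stalk gave 0 calls among 5 members, against 8.87% higher and 6.80% lower among all tested genes. With so few members, 0 calls do not set these parts apart from the others. Atp5b encodes the catalytic beta subunit and had 1531, 1632, 1485 and 1693 CPM in knockouts 1 to 4, against 1314, 1482, 1391 and 1309.6 CPM in controls 1 to 4. The groups did not overlap, although knockout 3 stood barely above control 2, and the log2 fold change of 0.21 had an edgeR adjusted p of 0.0936. Atp5a1, the alpha subunit gene, averaged 931 ± 156 CPM in knockouts and 765 ± 56.6 CPM in controls (SD, n = 4 each). Its log2 fold change was 0.28 (edgeR adjusted p = 0.062), and without knockout 1, the lowest of the knockouts at 745 CPM, the adjusted p was 0.00671. In the central stalk, the log2 fold changes were 0.10 for Atp5c1 (gamma), 0.05 for Atp5d (delta) and -0.08 for Atp5e (epsilon, 95% interval -0.23 to 0.07). The membrane subunits that help the enzyme form dimers, Atp5j2 (f), Atp5k (e) and Atp5l (g), had log2 fold changes of 0.21, 0.26 and 0.14, with edgeR adjusted p-values of 0.123, 0.0684 and 0.445. Without control 2, Atp5j2 (adjusted p = 0.0265), Atp5k (0.019) and Atp5b (0.0475) passed. Control 2 was the highest control for each of these genes, so leaving it out is no test of them. The same holds for leaving out knockout 1 in Atp5a1.

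Transcript length moved with the genotype difference. The members are short, with main annotated transcripts of 360 to 4715 bases and a median of 738, against 3027 for all tested genes. Among tested genes that are not members, the 284 with transcripts up to 700 bases had a median log2 fold change of 0.09 and 15.5% were called higher, while the 5410 above 3000 bases had a median of -0.02 and 6.77% called higher. The 16 members up to 700 bases had a median of 0.18, and the 11 between 700 and 1500 bases of 0.21, against 0.09 for the 1456 other genes of that class. The 7 members between 1500 and 3000 bases also had 0.21, against 0.02 for the 3502 other genes. When the trend of each library's counts with transcript length was removed in the same fit, the members' median fell to 0.08, with 6 members called higher and 2 lower. The 6 were Uqcrc2 (log2 fold change 0.31), Cox5b (0.58), Cox6a2 (0.32), Atp5f1 (0.24), Atp5g3 (0.29) and Atp5h (0.63). The calls of Uqcrb (adjusted p = 0.186), Cox7a1 (0.0908), Cox8b (0.246) and Atp5o (0.194) were lost in that fit, and Uqcrh (log2 fold change -0.23, adjusted p = 0.0493) and Atp5e (-0.25, adjusted p = 0.0274) were called lower.

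**Figure D5:**
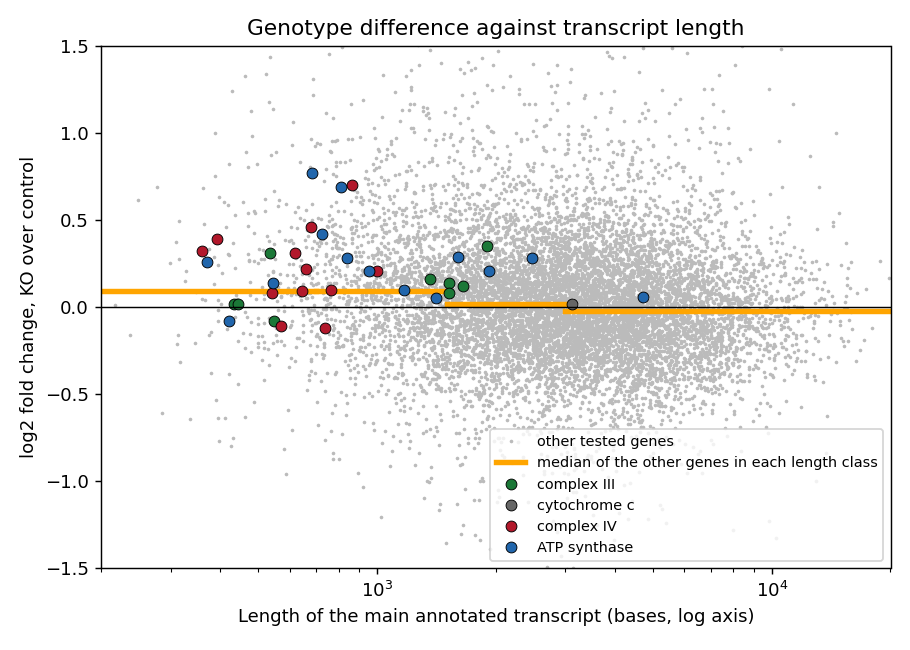
Log2 fold change, knockout over control, against the length of the main annotated transcript (log axis) for the tested members (coloured by complex) and the other tested genes (grey; those beyond 1.5 in either direction are not drawn), with orange lines at the median of the other genes in each length class. The orange medians step down from 0.09 for the shortest genes to -0.02 for the longest, and most members lie above them.

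Related gene sets were counted beside the members, with 8.87% of all tested genes called higher and 6.80% lower. Complex I, which feeds electrons to complex III through ubiquinone, had 10 of 36 subunit genes higher and 0 lower, and its median of 0.18 equalled that of the members. Its lowest p-values belonged to Ndufb3 (log2 fold change 0.89), Ndufs4 (0.46), Ndufb10 (0.41) and Ndufa8 (0.42). With the length trend removed 5 were higher and the median was 0.07. Complex II, the succinate dehydrogenase, had 2 of 4 higher, Sdhc (log2 fold change 0.39) and Sdhd (1.03), and 1 of 4 with the length trend removed. The call of Sdhc was lost under 7 of 21 alternatives and that of Sdhd under 9 of 20, and Sdhd had 12 to 23 reads in knockouts and 5 to 14 reads in controls. Atpif1, which encodes the inhibitor that blocks ATP hydrolysis by the synthase, had 35.6, 46.8, 34.2 and 46.1 CPM in knockouts 1 to 4, against 19.8, 25.1, 23.9 and 19.8 CPM in controls 1 to 4. Its groups did not overlap, and it rose by a log2 fold change of 0.87 (SE 0.13, edgeR adjusted p = 3.3e-05). Of the 6 mitochondrially encoded genes of complexes III and IV and ATP synthase, 2 could be tested and 0 passed, with mt-Cytb at a log2 fold change of -0.13 (adjusted p = 0.431) and mt-Co1 at -0.37 (adjusted p = 0.125). mt-Cytb averaged 170.5 ± 29.4 CPM in knockouts and 187 ± 8.27 CPM in controls (SD, n = 4 each), whereas mt-Co2, mt-Atp6 and mt-Atp8 are listed at 0 in all 8 libraries. Muscle cells use these genes, and how multiply placed reads were handled is not known, so the zeros give no level. All mitochondrially encoded genes together took 0.18% to 0.277% of the reads in knockouts and 0.212% to 0.329% in controls. mt-Co1 had 70 to 99 reads in knockouts and 84 to 122 in controls. The values of mt-Cytb and mt-Co1 are therefore uncertain too, and do not show that mitochondrial transcripts were unchanged.

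Assembly factors, which build the complexes but are not part of them, held calls in both directions. Their counts stand beside 8.87% higher and 6.80% lower among all tested genes. For complex III, 2 of 7 were higher and 1 lower. The rises were in Uqcc3 (log2 fold change 0.37, edgeR adjusted p = 0.00428) and in Brawnin, for a small protein tied to complex III assembly in zebrafish and human cells (0.50, edgeR adjusted p = 5.5e-04). Ttc19, which acts on the Rieske protein late in assembly, fell to 99.9, 106, 98.5 and 109.9 CPM in knockouts 1 to 4, against 151, 159, 129 and 129 CPM in controls 1 to 4 (log2 fold change -0.46, edgeR adjusted p = 8.5e-04). For complex IV, 3 of 23 were higher and 1 lower. Cox19, of the copper delivery route, rose by a log2 fold change of 0.58, Cox20, a chaperone for the second core subunit, by 0.47, and Higd1a, a binding partner of the complex, by 0.47, while Cox14, which stabilises newly made core subunit, fell by 0.27. The calls of Higd1a and Cox14 were lost under 8 and 5 of the 21 alternatives. For ATP synthase, 0 of 6 passed at adjusted p below 0.05. The lowest p belonged to Fmc1 (log2 fold change -0.26, edgeR adjusted p = 0.0544) and Tmem242 (-0.21, edgeR adjusted p = 0.101). Fmc1 passed as lower under 11 of the 21 alternatives, DESeq2 among them (adjusted p = 0.0491), with adjusted p-values from 8.4e-04 to 0.165 over all 21. Tmem242 passed under 2, and with the length trend removed both were called lower.

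Among 12 tested regulators of respiratory genes, 3 were higher and 2 lower, against 8.87% higher and 6.80% lower among all tested genes. Tfam, for the factor that transcribes and packs mitochondrial DNA (log2 fold change 0.44), and the receptor genes Esrrg (0.57) and Esrrb (0.94) rose, and Yy1 (-0.53) and Gabpa (-0.79) fell. The calls of Esrrg, Tfam and Gabpa were lost under 9, 4 and 2 of the 21 alternatives. Esrrb was named after its values were seen, and its call was not followed under the alternatives. It had 18 to 35 reads in knockouts and 6 to 17 reads in controls, with overlap in CPM (edgeR adjusted p = 0.0433). Ppargc1a, the coactivator gene best known for raising respiratory genes in muscle, had a log2 fold change of -0.02 (edgeR adjusted p = 0.924).

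Markers of the tissue and of other cells were read alongside, again beside 8.87% higher and 6.80% lower among all tested genes. The 10 skeletal muscle markers were abundant, at 241079 to 262527 CPM summed in knockouts and 213781 to 260641 CPM in controls, with 2 higher, Mylpf (log2 fold change 0.43) and Acta1 (0.26, lost under 14 of 21 alternatives), and 1 lower, Myh4 (-0.31), so the defining markers of the labelled tissue were present. Of 11 slow and oxidative fibre markers 7 were tested and 3 were higher: Mb (myoglobin, log2 fold change 0.87), Casq2 (0.56) and Myl3 (3.20). The other tested ones, Myh2 (1.46), Tnnt1 (1.09), Tpm3 (-0.03) and Atp2a2 (-0.14), were not called. The summed level of the 11 markers was 8233, 6038, 4852 and 7419 CPM in knockouts 1 to 4, against 3036, 4105, 3256 and 3146 CPM in controls 1 to 4, without overlap. Mb alone made up most of this sum, at 5393 ± 1044 CPM in knockouts and 2958 ± 338 CPM in controls (SD, n = 4 each). Myh2, the myosin of fast oxidative fibres, had 1394, 805, 541 and 1054 CPM in knockouts 1 to 4, against 213, 536, 375 and 253 CPM in controls 1 to 4 (edgeR adjusted p = 0.0644). Myh7, the myosin that defines slow fibres, had 17, 2, 2 and 2 reads in knockouts 1 to 4, against 0, 7, 1 and 16 reads in controls 1 to 4. Macrophage markers had 3 of 6 lower, Cd163 (log2 fold change -0.75), C1qb (-0.83) and Csf1r (-0.59, lost under 8 of 21 alternatives), and summed to 49.7 to 79.7 CPM in knockouts and 66.1 to 111 CPM in controls, and fibroblast markers had 1 of 6 lower, Dcn (-0.27, lost under 6 of 21 alternatives). The endothelial, adipocyte, erythroid, satellite cell, nerve and Schwann cell, and smooth muscle and pericyte lists had 0 calls each by edgeR, and Ucp1 had 0 reads in all libraries. The part of fibre type or of other cells in the members' levels was not tested.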

How the data were processed

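Quadriceps RNA from 8 libraries was prepared with the QuantSeq 3′ kit, per the labels' protocols. Per the file headers, the deposited values are raw read counts per Ensembl gene, 1 table a library. Tools named in the submitters' processing notes are featureCounts, Subread 1.6.2 and Bowtie2 2.3.4.1, with the builds GRCm38 and mm10. How strand and multiply placed reads were handled is not given in the sources used here, so genes with copies or antisense partners have less certain counts. Gene names and coordinates came from GENCODE M21 (54495 of 54532 rows matched), and near-identical copies were sought among its transcripts (at least 95% identity over 150 of the last 300 bases).

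Counts were filtered with filterByExpr (minimum count 10, total 15), scaled by TMM and tested with edgeR 4.0.16 (robust quasi-likelihood, R 4.3.3) over 10691 genes, with Benjamini-Hochberg adjusted p-values and a threshold of 0.05. Standard errors are the log2 fold change over the square root of F. Intervals are nominally 95% but use a normal quantile, so with 4 libraries a group they can be too narrow. That of Atp5j ran from 0.11 to 1.27, although its unadjusted edgeR p was 0.057. No 2 libraries agreed within sampling noise (chi-square per degree of freedom at least 2.33), and replicate numbers, given in accession order, pair no libraries. In all, 20 alternatives were planned and 1 added after seeing values, among them DESeq2 1.42.0, limma voom 3.58.1, other scalings and filters and each library left out.

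Named were Gpcpd1, all members, and up to 4 called genes of lowest p in each other list (2 of lowest p where none was called, apart from cell type markers), with others added for background. The members and lists were chosen with earlier results of these data known. Intervals and floors cover counting error and the spread between these libraries only.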

Additional observations from a re-analysis of the deposited data

Results flagged for a closer look

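Atp5f1 had 269 CPM in control 4, below the 286 to 288 CPM of the other 3 controls. The gap to the next library was 0.865 of the range of the 4 controls, above Dixon's 95% critical value for 4 libraries. Among 74 groups of 4 libraries looked at, this was the 1 that passed, and chance alone flags about 5% of groups.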

How the results depend on the processing

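Uqcrc2, Cox5b, Cox6a2 and Atp5g3 kept their call under all 21 alternatives. Complex III members called higher numbered 1 with the length trend removed and 1 to 2 with each library left out (1 without knockout 2, knockout 4, control 1 or control 4). Complex IV members numbered 2 with the length trend removed and 3 to 5 with each library left out, and ATP synthase members 2 to 6 (2 without knockout 4). The cause of these moves was not tested beyond the fewer libraries or the removed trend. Reversals occurred only among uncalled members, all between log2 fold changes of -0.15 and 0. With the length trend removed these were Uqcr10 (-0.14), Uqcr11 (-0.15), Cox4i1 (-0.03), Cox5a (-0.05), Cox7c (-0.07), Atp5d (-0.02) and Atp5l (-0.01). With library totals alone they were Uqcr10 (-0.01), Uqcr11 (-0.02) and Cycs (-0.01). With each library left out in turn, values ran from -0.03 to 0.10 for Uqcr10, -0.03 to 0.05 for Uqcr11, -0.06 to 0.11 for Cycs, -0.07 to 0.24 for Cox7c, -0.03 to 0.13 for Atp5d and -0.04 to 0.13 for Atp5g1. Without knockout 1 and control 4 together they were Uqcr10 (-0.05), Uqcr11 (-0.04) and Cycs (-0.08). The scaling moved the median of all genes by at most 0.04, and with library totals 47.9% of all calls were higher, against 56.6%. No paired analysis was possible because the replicate numbers come from accession order. Atp5g2 and the mitochondrially encoded genes listed at 0 had too few counted reads to test.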
